A study of Mus musculus with 4 samples.

Results

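Receptors for growth hormone, prolactin, leptin, insulin, insulin-like growth factor, thyroid hormone and thyrotropin were measured in nuclei of the mouse lateral septum (LS), a forebrain region linked to emotion and motivated behavior. They were the 8 genes Ghr, Prlr, Lepr, Insr, Igf1r, Thra, Thrb and Tshr, chosen by symbol from 32285 genes in the count matrices, and all 8 were present. LS tissue of male mice aged 6 to 8 weeks was dissected, and single-nucleus RNA sequencing was run on 4 libraries, each made from 3 pooled mice. Both C57J libraries came from C57BL/6JNifdc mice, 1 library came from BALB/c mice, and 1 library came from BALB/c nude mice, which lack T cells through a defect of Foxn1 on the BALB/c background. The labels name no treatment in any library, and the study chose these strains to compare the LS under different immune backgrounds. One C57J library was sequenced in batch 1 and the other 3 libraries in batch 2. The label of the nude library could not be checked with Foxn1, which had 5 and 2 UMIs in the kept nuclei of the C57J libraries, 2 in nude and 3 in BALB/c.

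Hormones from the pituitary, pancreas, fat, liver and thyroid reach the brain from the blood, and neurons and glia read them through these receptors. Ghr, Prlr and Lepr are cytokine receptors that signal through the kinase JAK2 and STAT factors. Insr and Igf1r are receptor tyrosine kinases that act through IRS adaptors, PI3 kinase and AKT. Thra and Thrb are nuclear receptors that bind thyroid hormone and act on genes directly, and Tshr is a G protein-coupled receptor for thyrotropin and thyrostimulin.

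After quality limits and doublet removal, 49425 of 58372 barcodes were kept, from 10913 to 13075 per library, with a median depth of 4082 to 8380 UMIs per nucleus that was highest in BALB/c. Of all barcode sequences, 0.522% occurred in more than 1 library. Nuclei were clustered without the 8 receptors and named from marker genes, so each class name stands for nuclei that resemble the type. The classes were LS neurons (20077 nuclei), other neurons (11077), astrocytes (7499), oligodendrocytes (OLs, 5320), OL precursors (OPCs, 1884), microglia (1354), neuroblasts (716), dividing nuclei (411), newly forming OLs (114) and vascular nuclei (104), with 869 nuclei left unnamed. Levels are counts of a gene per 1000000 UMIs of the class in a library (CPM), and ± is the SD over the 4 libraries (n = 4). RNA of other cells was present in every class: the summed level of the 4 neuron markers Snap25, Syt1, Rbfox3 and Snhg11 was 7535 to 8729 CPM in LS neurons and 1148 to 3132 in OLs, lowest in BALB/c and highest in nude. In glia, therefore, each receptor is also given as a percent of its level in all neurons of the same library, beside the same percent for these markers, and a receptor at or below the marker percent is read as background.

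**Figure D1:**
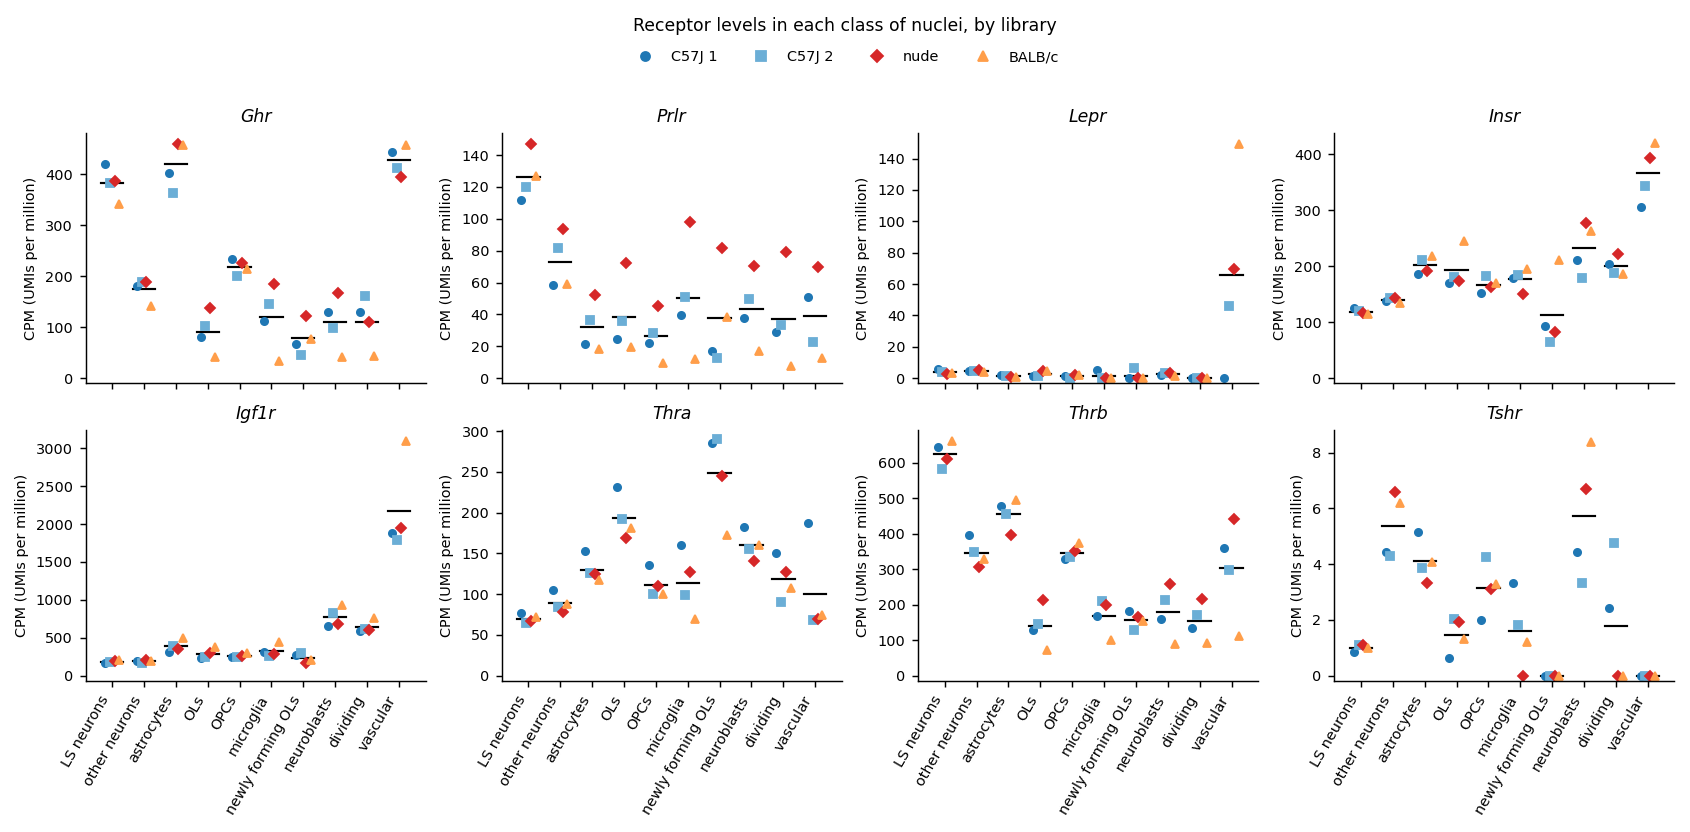
CPM (vertical axis, linear, a scale of its own for each gene) of the 8 receptors in 10 classes of nuclei, with 1 point for each library and a black line at the mean of the 4 libraries. Prlr was highest in LS neurons, Igf1r and Lepr in vascular nuclei, Thra in newly forming OLs, and Thrb in LS neurons, while Ghr means were 383, 420 and 427 in LS neurons, astrocytes and vascular nuclei.

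Across classes, the receptors fell into different patterns. Ghr was high in LS neurons (383 ± 31.8 CPM), astrocytes (420 ± 46.8) and vascular nuclei (427 ± 29.3), and lower in other neurons (174 ± 22.6) and OPCs (219 ± 14.1). The vascular class was named where several of the endothelial, mural and fibroblast marker sets were high, and its Ghr rested on 135 UMIs. Its 4 astrocyte markers summed to 695 to 1741 CPM, against 3443 to 4540 in astrocytes. The part of astrocyte RNA in vascular levels was not tested. Prlr was highest in LS neurons (126 ± 15) and other neurons (73.1 ± 17.5), and its mean lay between 26.3 and 50.3 in every named non-neuronal class. Insr and Igf1r had the opposite order, with their lowest class means in neurons apart from Insr in newly forming OLs (113 ± 67). Insr was 119 ± 4.51 in LS neurons, 202 ± 15.4 in astrocytes, 193 ± 35.7 in OLs and 367 ± 50.8 in vascular nuclei. Igf1r was 187 ± 15.1 in LS neurons, 389 ± 79.8 in astrocytes, 775 ± 131 in neuroblasts, 644 ± 75.3 in dividing nuclei and 2177 ± 613 in vascular nuclei.

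The thyroid hormone receptors differed from each other. Thra was lowest in LS neurons (70.1 ± 5.66) and highest in newly forming OLs (248 ± 53.9) and OLs (194 ± 27.1), while OPCs (112 ± 17.1) lay below neuroblasts (160 ± 17) and astrocytes (130 ± 15.7). Thrb was highest in LS neurons (625 ± 35.2), followed by astrocytes (456 ± 43.3), OPCs (347 ± 19.6) and other neurons (345 ± 38.3). Lepr and Tshr were sparse, at 4.01 ± 1.28 and 1.01 ± 0.116 CPM in LS neurons. Intervals and floors given for such counts cover counting error only.

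Ghr, Thrb, Insr, Igf1r and Thra stood above the neuron marker percent in astrocytes and OPCs, whereas Prlr was closer to it in glia. These markers gauge neuronal RNA only, and background RNA of another make-up was not tested. The 4 neuron markers stood at 14 to 31.3% of their neuronal level in astrocytes, while Ghr stood at 113 to 165%, Thrb at 75.3 to 89.5%, and Insr, Igf1r and Thra at 145% or more, each above the markers in 4 of 4 libraries. In OPCs the markers stood at 14.2 to 27.3%, Ghr at 62.5 to 77.6% and Thrb at 58.5 to 67.3%. Prlr followed the markers from library to library, at 17.5 to 39.7% in astrocytes and 9.02 to 34.3% in OPCs, and it was above them in 3 and 2 of 4 libraries. In OLs Prlr was above the markers in 4 of 4 libraries, at 26.3 and 33.4% in the C57J libraries, 54.7% for nude and 18.7% for BALB/c. In microglia it was above them in 3 of 4, at 11.6 to 74.3% against 22.4 to 46%. In OLs the markers stood at 26 and 28.9% in the C57J libraries 1 and 2, at 37.4% in nude and at 15.4% in BALB/c, and Ghr stood at 23.4, 31.6, 41.4 and 15.3% in the same order. Thrb in OLs was at 22.6, 28.5, 40.6 and 13.3%, above the markers only in nude. These Ghr and Thrb values in OLs are therefore close to background, and the same holds for Thrb in microglia, which was above the markers in 0 of 4 libraries. Ghr in microglia was also close to background, at 12.3 to 55.6% against 22.4 to 46%, and above the markers in 2 of 4 libraries. Insr, Igf1r and Thra in OLs stood at 131 to 204%, 129 to 183% and 236 to 272%, above the markers in 4 of 4 libraries.

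**Figure D2:**
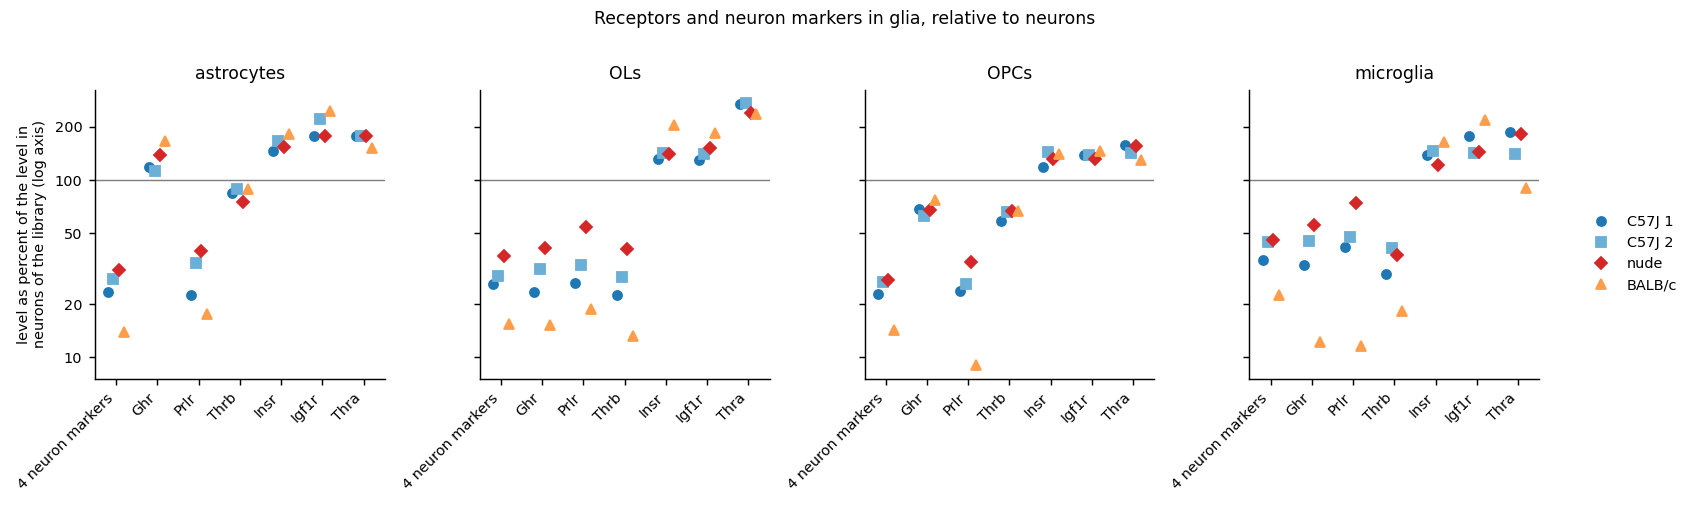
Level of 6 receptors and of the summed 4 neuron markers in astrocytes, OLs, OPCs and microglia, as a percent of the level in all neurons of the same library (vertical log axis, line at 100%), with 1 point for each library. In OLs, Ghr (15.3 to 41.4%) and Thrb (13.3 to 40.6%) lie at the level of the markers (15.4 to 37.4%), while Insr, Igf1r and Thra lie at 129% or more.

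Astrocytes and LS neurons, the largest glial and neuronal classes of the region, were then set side by side within each library. These ratios are descriptions, since both classes come from clustering the same nuclei. Ghr did not hold a direction, with a log2 ratio of astrocytes over LS neurons of 0.13 ± 0.24, positive in nude and BALB/c and negative in both C57J libraries. Insr (0.76 ± 0.15), Igf1r (1.04 ± 0.19) and Thra (0.89 ± 0.13) were higher in astrocytes in 4 of 4 libraries, and so was Tshr (2.01 ± 0.43), which rested on 13 to 33 astrocyte UMIs per library. Among the 6 astrocyte clusters described below, Tshr was 21.2 CPM in the Dkk3 cluster, while the median over the 6 was 1.7. In LS neurons it was 1.01. Prlr (-2.10 ± 0.60), Lepr (-1.72 ± 0.42) and Thrb (-0.46 ± 0.12) were higher in LS neurons in 4 of 4 libraries. For Lepr the ratio rested on 4 to 11 astrocyte UMIs per library. Astrocyte Lepr stood at 17.6 to 36.5% of its level in all neurons, beside 14 to 31.3% for the neuron markers, so it was close to background.

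**Figure D3:**
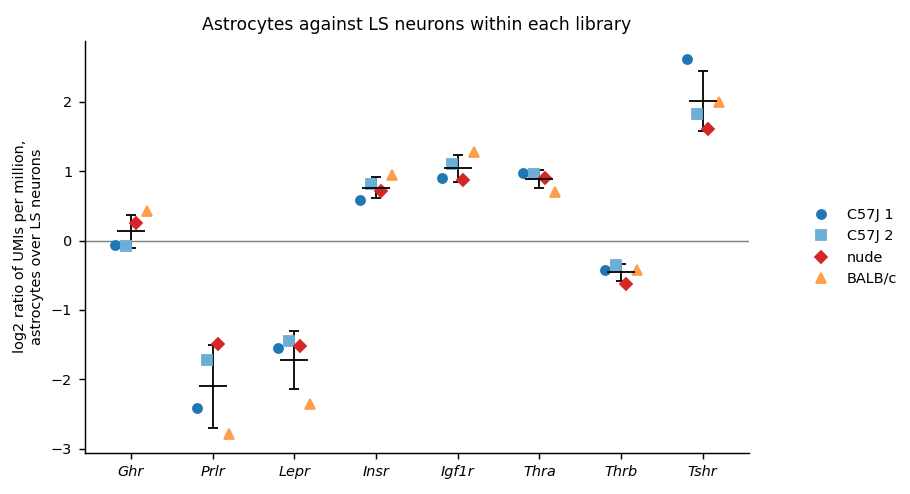
Log2 ratio of CPM in astrocytes over LS neurons (vertical axis) for the 8 receptors, with 1 point for each library and black marks for mean ± SD over 4 libraries. Insr, Igf1r, Thra and Tshr lie above 0 in every library and Prlr, Lepr and Thrb below 0, while the Ghr points lie on both sides of 0.

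Clustering within the classes gave 54 cell types of at least 50 nuclei, with 23 clusters of LS neurons, 18 of other neurons and 6 of astrocytes. LS clusters are called here by 2 of their leading genes from a marker panel. Ordered by mean level over all 54 types, next neighbours rarely separated in all 4 libraries, in 0 to 3 of 53 neighbouring pairs for each receptor, so only the ends of each order are described.

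Ghr, the growth hormone receptor (chr15:3317760-3583492, minus strand, GRCm38), was highest in an LS cluster led by Col15a1 and Cpa6. It reached its highest level in the Col15a1 Cpa6 cluster, at 868 CPM in C57J 1, 789 in C57J 2, 829 in the nude library and 795 in the BALB/c library. That cluster ranked first in 4 of 4 libraries, and 1320 of its 1339 nuclei (98.6%) held a Ghr UMI at a median depth of 10042 UMIs. After thinning each nucleus to 1000 UMIs the share was 55.3% (95% exact interval, 52.6 to 58), against 0.581% in cholinergic neurons, where 1 of 172 nuclei held one. The Col15a1 Met cluster had 632 ± 84.4 CPM and the Etv1 Ddr2 cluster 534 ± 59. The lowest LS cluster was Plekhd1 Met with 107 ± 10.8, which gave a 7.66-fold range over the LS. Among the clusters of other neurons, Ghr was lowest in cholinergic neurons (18.7 ± 12.7) and in the Sox6 Meis1 cluster (37 ± 10.8). Among astrocytes, the Mpp6 Slc25a21 cluster was highest in 4 of 4 libraries (662 ± 115) and the Dkk3 cluster lowest in 4 of 4 (263 ± 35.2). The mean of the Mpp6 Slc25a21 cluster lay above that of the Col15a1 Met cluster.

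Prlr, the prolactin receptor (chr15:10177238-10349180, plus strand), was restricted to fewer neuron types. The Cpa6 Sall3 cluster of the LS had 438, 422, 486 and 446 CPM in the same library order and ranked first among 54 types in 4 of 4 libraries. Other high clusters were Col6a3 Grid2ip (353 ± 36.3), Esr1 Otx2os1 (342 ± 33) and Calcr Ndst4 (326 ± 57.9), whose leading genes encode the estrogen receptor and the calcitonin receptor among others. One cluster of other neurons, led by Pard3b and Cadps2, reached 373 ± 23.1. At the low end, the Etv1 Ddr2 cluster of the LS, one of the highest for Ghr, had 18.4 ± 5.19, and striatal neurons had between 12 and 14.9 in 3 clusters. The range over LS clusters was 24.4-fold, and across the 23 LS clusters Prlr and Ghr levels were unrelated (Pearson r = 0.01 on the log2 scale, a description, since the clusters share libraries).

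Lepr, the leptin receptor (chr4:101717404-101815352, plus strand), was the sparsest of the cytokine receptors. Its highest mean was in vascular nuclei, with 0 UMIs in C57J 1, 2 in C57J 2, 3 in the nude library and 24 in the BALB/c library, or 66 ± 62.2 CPM, and the 0 in C57J 1 allowed a level of up to 51.2, the value of 3 UMIs in that library. Among neurons, the Lncenc1 Ecel1 cluster of the LS was highest, at 35.9, 29.2, 9.75 and 14.7 CPM, from 200 UMIs in 899 nuclei. It was first among LS clusters in 3 of 4 libraries, and 1.89% of its nuclei (95% exact interval, 1.11 to 3.01) held a Lepr UMI at 1000 UMIs, against 0.175% (0.093 to 0.298) of astrocytes. The Arhgap6 Prdm16 cluster of other neurons had 15.7 ± 8.21 and the Slc17a6 glutamatergic neurons 14 ± 9.79. Within the LS, the clusters high for Lepr were also high for Thrb (r = 0.70 over 23 clusters, with Lncenc1 Ecel1 first for both), and over all 54 types this was weaker (r = 0.17).

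**Figure D4:**
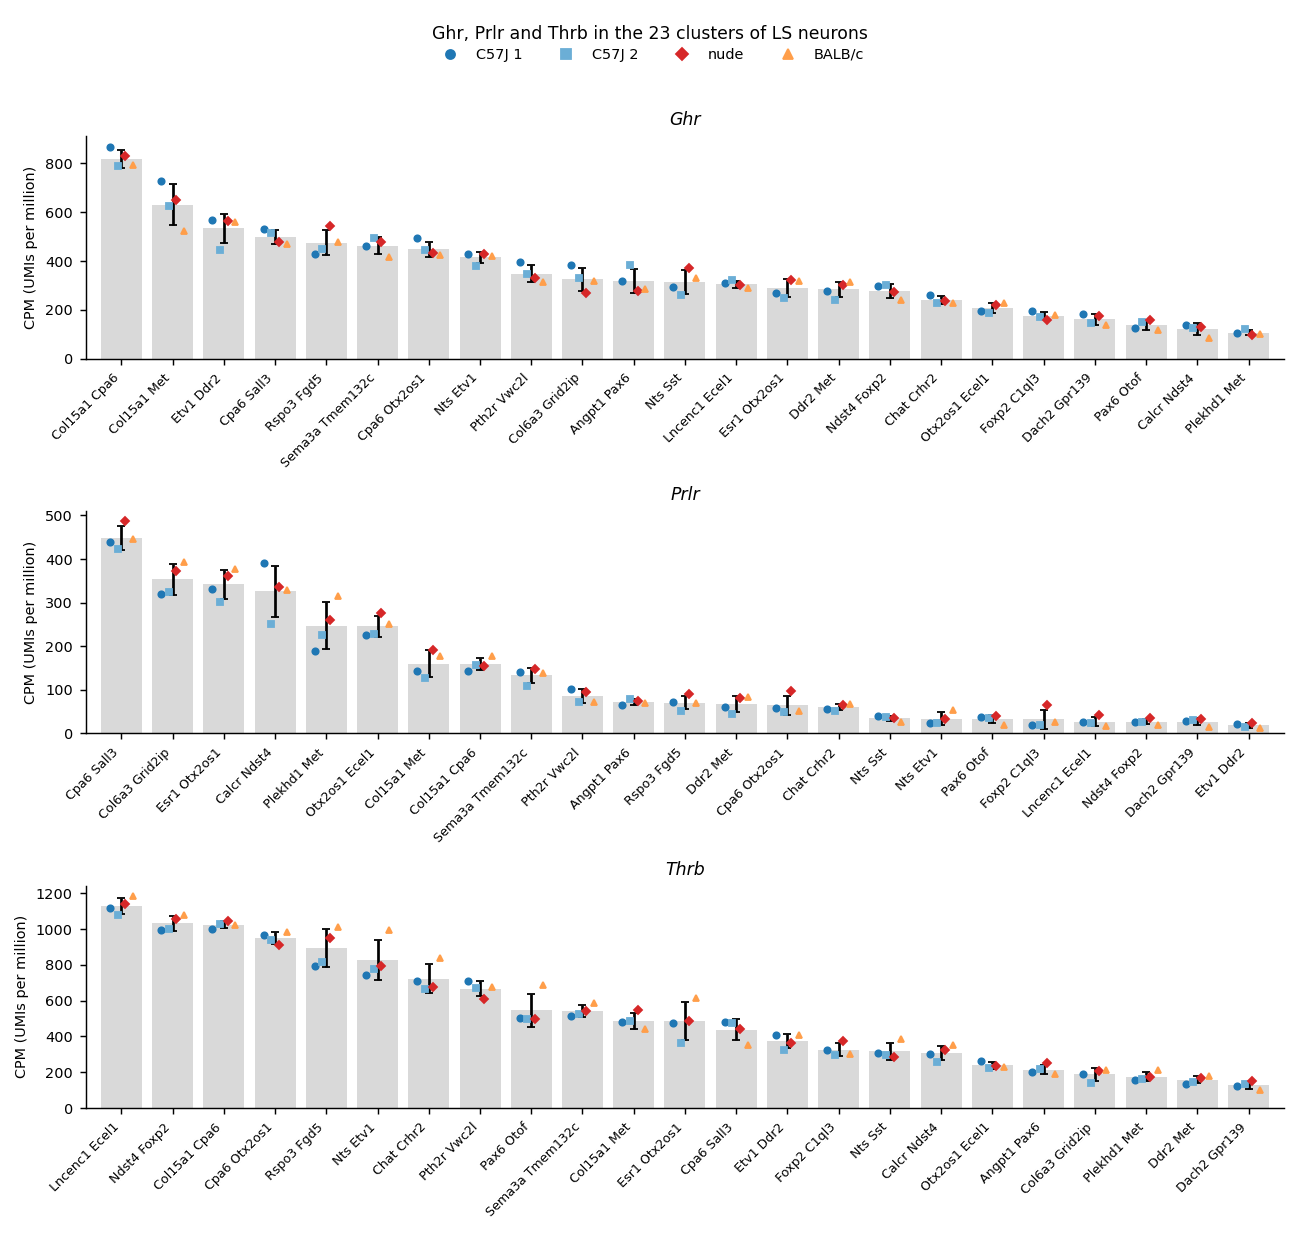
Ghr, Prlr and Thrb in the 23 clusters of LS neurons, as CPM (vertical axis from 0), with bars at the mean of 4 libraries, error bars of 1 SD and 1 point for each library. The Col15a1 Cpa6 cluster leads for Ghr (820 ± 36.8), Cpa6 Sall3 for Prlr (448 ± 27) and Lncenc1 Ecel1 for Thrb (1130 ± 43.7), each first in 4 of 4 libraries.

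Insr, the insulin receptor (chr8:3122061-3279617, minus strand), was the most even of the receptors over LS clusters. Between its highest LS cluster, Esr1 Otx2os1 (145), and its lowest, Col6a3 Grid2ip (91.3 ± 12.4), the range was 1.58-fold, and over all 54 types it was 4.02-fold. Vascular nuclei had 307, 344, 394 and 421 CPM and were first in 4 of 4 libraries, followed by neuroblasts (233 ± 46.1). The 6 astrocyte clusters lay between 190 and 213 and overlapped.

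Igf1r, the receptor for insulin-like growth factor (chr7:67952827-68233668, plus strand), stood out in vascular nuclei, with 1878, 1790, 1946 and 3092 CPM from 771 UMIs in 104 nuclei. The level there was 1001 to 1518% of the neuronal level, while the neuron markers stood at 14.1 to 52.5%. Neuroblasts had 652, 826, 687 and 937, and dividing nuclei 591, 621, 608 and 755. Among astrocytes the Dkk3 cluster was highest in 4 of 4 libraries (524 ± 173), with 782 in BALB/c and 424 to 457 in the others. LS clusters lay between 147 (Col6a3 Grid2ip and Col15a1 Met) and 319 (Angpt1 Pax6), and the last was highest in 4 of 4 libraries. Insr and Igf1r had like orders over the 54 types (r = 0.83, and 0.77 without vascular nuclei), and over the 23 LS clusters r was 0.47.

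Thra, the thyroid hormone receptor alpha (chr11:98740638-98769006, plus strand), was highest in newly forming OLs, at 285, 290, 245 and 173 CPM, and in OLs, at 232, 192, 169 and 181. The nude and BALB/c values in newly forming OLs rested on 6 and 9 UMIs in 8 and 7 nuclei, and the BALB/c value lay below that of OLs. Neuroblasts (160 ± 17) and Dkk3 astrocytes (156 ± 20.2) came next. LS clusters lay low and close together, between 49.2 ± 5.14 (Col6a3 Grid2ip) and 109 (Angpt1 Pax6). The gene overlaps Nr1d1 on the opposite strand, and its splice forms, of which only some bind hormone, cannot be told apart in these counts.

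Thrb, the thyroid hormone receptor beta (chr14:17660261-18038090, plus strand), was highest in the Lncenc1 Ecel1 cluster of the LS, at 1116, 1080, 1141 and 1184 CPM. In that cluster 894 of 899 nuclei (99.4%) held a Thrb UMI, and 65.3% did at 1000 UMIs. Ndst4 Foxp2 (1033 ± 41.2) and Col15a1 Cpa6 (1025 ± 18.6) followed. The lowest LS cluster in 4 of 4 libraries was Dach2 Gpr139, at 126, 136, 150 and 102, an 8.81-fold range. Among the clusters of other neurons, 1 of the striatal Drd1 clusters, led by Foxp2 and Zswim6, had 866 ± 52.8, while Slc17a6 glutamatergic neurons (90.4 ± 61.1) and cholinergic neurons (71 ± 35.6) had the least. Ghr and Thrb levels had a correlation of 0.53 over 54 types and 0.50 over the LS clusters, and Col15a1 Cpa6 was among the top 3 for both.

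Tshr, the thyrotropin receptor (chr12:91384563-91549808, plus strand), was found in a few types. A striatal Drd1 cluster led by Sgcd and Gpr149 had 24.2, 23.2, 35.2 and 88.4 CPM from 43 UMIs, and 317 of its 426 nuclei came from C57J 1. Lhx6 GABAergic neurons had 35.9, 9.67, 31.3 and 17.4, and the Sox6 Meis1 cluster 11.5, 19.3, 21.7 and 21.9 from 233 UMIs. Among astrocytes, the Dkk3 cluster had 30.2, 13.9, 17.8 and 23.2 from 68 UMIs and was highest in 4 of 4 libraries, while the other 5 astrocyte clusters had 0.367 to 2.03. At 1000 UMIs, 1.84% of Dkk3 astrocytes (95% exact interval, 1.16 to 2.77) held a Tshr UMI, against 0.0651% (0.00165 to 0.362) of Lrig1 astrocytes, with median depths of 2217 and 2539 UMIs before thinning. In the LS, the Etv1 Ddr2 cluster had 8.63 ± 2.07, and no UMI was counted in 4 LS clusters. None was counted in 104 vascular nuclei either, at a median depth of 2082 UMIs, which limits detection and not the share of nuclei expressing the gene.

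For each receptor, up to 3 of the genes with the most similar pattern over the 54 types are given, by Pearson correlation of log2 levels among 12020 genes. For Ghr these were Tpd52l1 (r = 0.66), Kbtbd11 (0.62) and Slc2a12 (0.62), and for Prlr Htr7 (0.72) and Gfra2 (0.67), which encode a serotonin receptor and a receptor for neurturin. Lepr had Tgfbr3 (0.71), Cemip (0.62) and Sptbn1 (0.61), which without vascular nuclei gave 0.63, 0.45 and 0.37. Insr had Vcp (0.89), Selenow (0.88) and Clcn3 (0.86), and Igf1r had Apcdd1 (0.88), Lef1 (0.86) and Bsg (0.85), again with their maximum in vascular nuclei. Thra had Tuba1a (0.87), Tmcc2 (0.84) and Syt11 (0.84). Thrb was closest to Gm48321 (0.86), a gene on the opposite strand within the Thrb locus whose reads may not be separable from those of Thrb, followed by Lrrk2 (0.74) and Ngef (0.71). Tshr had lower values, with Lrrc38 (0.56), Vip (0.54) and Sult4a1 (0.53). The points of these correlations share libraries and depth.

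The hormones themselves were nearly absent. Over all kept nuclei, Gh had 1 UMI, Prl 0, Lep 2, Ins1 1, Ins2 12 and Tshb 53, the last mostly in OLs (2.29 ± 1.16 CPM). Igf1 had 1052 UMIs and was highest in Lhx6 GABAergic neurons (72.9 ± 58.4), and Igf2 had 130 and was highest in vascular nuclei (94.8 ± 95.7). Insrr, an insulin receptor relative with no known hormone ligand, was highest in cholinergic neurons (101 ± 19.7).

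Genes that act with the receptors were summed in 6 classes (both neuron classes, astrocytes, OLs, OPCs and microglia), and the highest class below is among these. Their glial levels were not set against the neuron markers, so low glial values may include background. Of the thyroid hormone list, the activating deiodinase Dio2 (62.5 ± 50.6) and the transporter Slco1c1 (253 ± 104) were highest in astrocytes, with 1.63 ± 0.606 and 9.63 ± 1.65 in LS neurons, and the thyroid hormone target Klf9 was 260 ± 72.9 in astrocytes and 69.9 ± 4.95 in LS neurons. The transporter Slc16a10 was highest in microglia (52.7 ± 13.2). Downstream of insulin and IGF receptors, the transcription factor Foxo1 was 248 ± 79.6 in astrocytes and 13.4 ± 1.13 in LS neurons, the adaptor Grb10 was 217 ± 17.3 in LS neurons and 55.9 ± 25.7 in astrocytes, and Grb14 was highest in OLs (370 ± 70.4). Astrocyte Grb10 was lowest in BALB/c (28.3) and highest in nude (89.9), as were the neuron markers in astrocytes. On the cytokine receptor side, the kinase Jak2 (161 ± 19.7) and the phosphatase Ptpn11 (184 ± 41.2) were highest in OLs, and Socs2, a feedback inhibitor of growth hormone signaling, was 39.4 ± 1.8 in LS neurons and 10.3 ± 4.93 in astrocytes.

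The study compared C57J mice with nude and BALB/c mice, so both C57J libraries were tested against the nude and BALB/c libraries in each of 6 classes. No receptor passed the test in any class (edgeR quasi-likelihood test, adjusted p below 0.05 over all genes and a log2 fold change above 0.5 in size). Of 48 pairs of receptor and class, 42 had enough UMIs to be tested, 5 of them had an unadjusted p below 0.05, and DESeq2 called 0. Over all genes tested, the same limits called 2.19% in LS neurons, 0.830% in other neurons, 0.0497% in astrocytes, 0.0716% in OLs, 0.230% in OPCs and 0% in microglia, where 464 of 8865 genes had an unadjusted p below 0.05 and DESeq2 called 14. In edgeR, 2715 of 18578 genes had an unadjusted p below 0.05 in LS neurons and 2205 of 17118 in other neurons. These counts were 1030 of 14084 in astrocytes, 665 of 12577 in OLs and 802 of 10854 in OPCs. The 5 receptor pairs were 3 of 8 receptors in LS neurons, 1 of 8 in other neurons and 1 of 7 in OLs. The C57J libraries did not overlap the other libraries for 4 of 8 receptors in LS neurons, 3 of 8 in other neurons, 2 of 7 in astrocytes, 3 of 7 in OLs, 2 of 6 in OPCs and 0 of 6 in microglia. Over all genes that share was 45.3% in LS neurons, 43.2% in other neurons, 37.8% in astrocytes, 33.2% in OLs, 37.0% in OPCs and 32.9% in microglia. With 6 to 8 receptors tested per class, these shares do not show that the receptors stand apart from other genes. With 3 mice pooled per library, p-values measure the spread between libraries. The nude and BALB/c libraries formed 1 group in the test, so this spread includes any difference between these genotypes. It also includes any batch difference between the C57J libraries. Nude and BALB/c share a background and differ in T cells, and with 1 library of each the difference between them could not be tested.

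**Figure D5:**
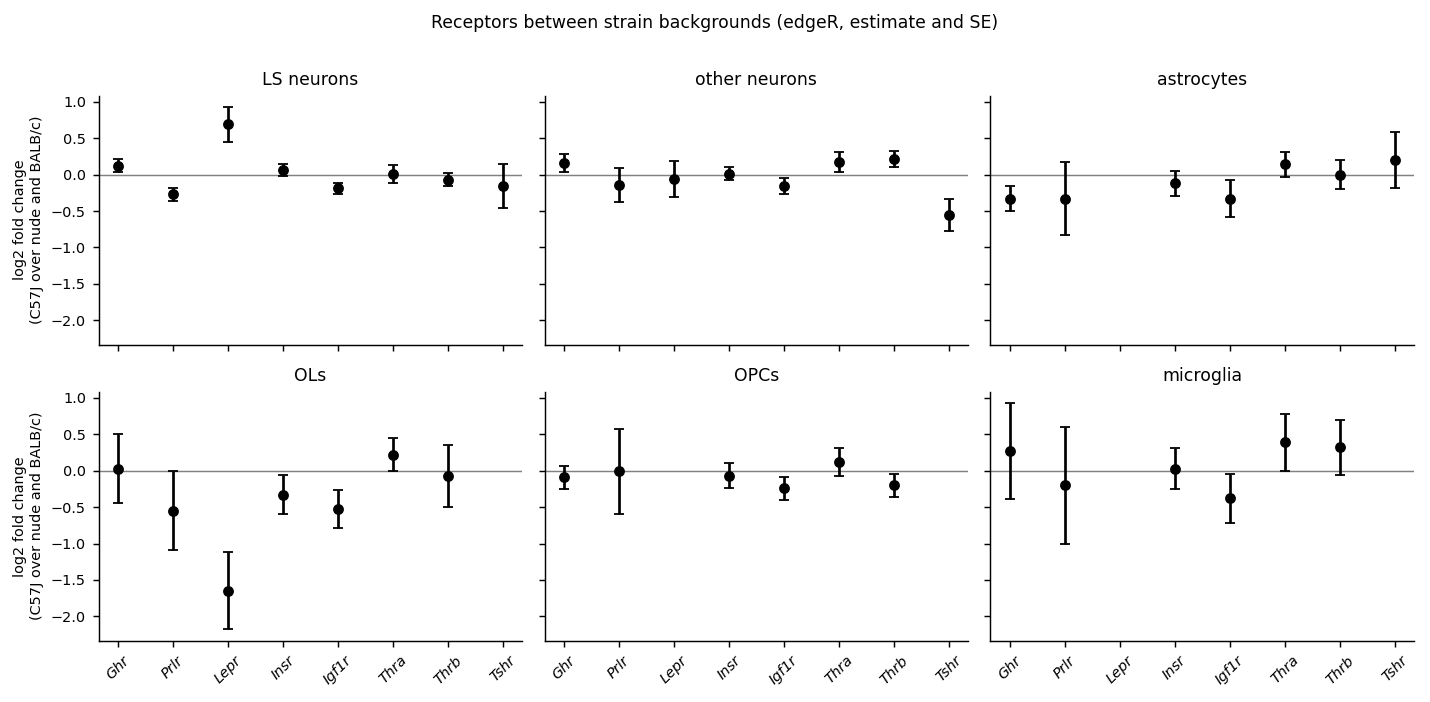
Log2 fold change (vertical axis) of the receptors tested in each of 6 classes, both C57J libraries over the nude and BALB/c libraries, as edgeR estimates with bars of 1 SE. None passed the test. The estimates of Igf1r lie below 0 in all 6 classes, which come from the same libraries and are not separate repeats.

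In LS neurons, Prlr was 112 and 120 CPM in the C57J libraries, against 147 for nude and 127 for BALB/c, with an estimated log2 fold change of -0.27 (SE 0.09, unadjusted p = 0.0207, adjusted p = 0.230 by edgeR). All C57J values lay below the others, yet the difference did not pass. Each class value sums clusters of unlike level, with a 24.4-fold range of Prlr over the 23 LS clusters. The paper reports that proportions of some LS neuron clusters differed between these strains, and their part in the estimates was not tested. Lepr was 5.72 and 4.23 in C57J against 2.94 in nude and 3.13 in BALB/c, with an estimate of 0.69 (SE 0.24, adjusted p = 0.241 by edgeR). Without C57J 2 this became 0.91, and without C57J 1 it was 0.43 (edgeR), each with 1 C57J library left. The former fit sets batch 1 (C57J 1) against batch 2, so strain and batch cannot be told apart in it. Igf1r was 170 and 182 against 189 and 206, a log2 fold change of -0.19 (SE 0.08, adjusted p = 0.332 by edgeR). For Ghr (0.12, SE 0.09), Insr (0.06, SE 0.08), Thra (0.01, SE 0.12), Thrb (-0.07, SE 0.09) and Tshr (-0.16, SE 0.30) the libraries overlapped or the estimate was small, and the adjusted p was 0.639 or more (edgeR). Batch 2 alone, that is without C57J 1, holds 1 C57J library, so that fit could not decide whether a receptor differs between strains.

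The estimate for Igf1r was negative in all 6 classes, from -0.16 in other neurons to -0.53 in OLs, with the C57J libraries below both others in LS neurons, other neurons, OLs and OPCs. The classes come from the same 4 libraries, so their like sign is not a repeat of the result. How many other genes kept 1 sign in all 6 classes was not counted. Without BALB/c it was -0.13 in LS neurons, -0.29 in OLs, -0.09 in OPCs and -0.01 in astrocytes and microglia, and without C57J 2 it was -0.04 in other neurons. In OLs Igf1r was 230 and 251 in C57J against 295 in nude and 372 in BALB/c (adjusted p = 1.00 by edgeR).

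In the remaining classes, the SE was larger than in LS neurons for each receptor tested, except Tshr in other neurons (0.22 against 0.30). Tshr in other neurons was 4.43 and 4.28 in C57J against 6.59 in nude and 6.18 in BALB/c (log2 fold change -0.56, SE 0.22, adjusted p = 0.352 by edgeR). Lepr in OLs rested on 5 and 4 UMIs in C57J against 9 and 28 in nude and BALB/c (log2 fold change -1.65, SE 0.53, adjusted p = 0.743 by edgeR). Ghr in astrocytes was 402 and 363 in C57J against 460 and 457 (log2 fold change -0.33, SE 0.17, adjusted p = 0.752 by edgeR). A test of whether the strain difference itself differed between astrocytes and LS neurons called no receptor and none of 18561 genes (edgeR interaction term, called share 0%), of which 868 had an unadjusted p below 0.05. Ghr came closest at -0.47 (SE 0.19, unadjusted p = 0.0494, adjusted p = 0.953).

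In OLs, OPCs and microglia, estimates depended on which libraries were kept. Without nude, with BALB/c alone on the other side, Ghr was 0.96 and Igf1r -0.77 in OLs. Prlr was then 1.28 in OPCs, and in microglia Ghr was 1.87 and Prlr 1.84. With another library left out, these estimates reached -0.59, -0.29, -0.88, -0.55 and -1.15 in the same order. The 4 neuron markers in microglia were 3068 and 3725 CPM in the C57J libraries, 3856 for nude and 1672 for BALB/c, and in OLs they were 2268 and 2414 for C57J, 3132 for nude and 1148 for BALB/c, so they were low in the same library in which Ghr and Prlr were low in these glia (Ghr in BALB/c microglia 34.1, in OLs 42.4). Their part in these results was not tested.

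The 64 related genes were tested in the same fits, in lists of ligands, binding proteins, JAK-STAT signaling, insulin and IGF signaling, and thyroid hormone handling. None was called in 258 pairs of gene and class by edgeR, 23 pairs had an unadjusted p below 0.05, and DESeq2 called 1, Rxrg in other neurons (edgeR log2 fold change 0.92, SE 0.21, adjusted p = 0.114), a retinoid X receptor that pairs with thyroid hormone receptors. The counts over all genes at that unadjusted p are given above for each class. For the insulin and IGF list in LS neurons, C57J lay below both other libraries for 6 of 18 genes and above for 2, with a median log2 fold change of -0.07 beside 0.01 over all genes tested, of which 45.3% did not overlap in either direction. For the thyroid list in LS neurons these were 6 and 1 of 14 genes, with a median of -0.05. For the JAK-STAT list they were 3 and 3 of 11, with a median of -0.07, and for the binding proteins 2 and 2 of 7, with a median of -0.12. Only 1 of 12 ligands could be tested there.

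Among the related genes whose libraries did not overlap, up to 2 of those with the largest difference each way are named for each class, none of them past the test (edgeR adjusted p from 0.114 to 1.00). In LS neurons Crym, a protein that binds thyroid hormone in the cytosol, was higher in C57J by 0.95 on the log2 scale and Insrr by 0.92, while Rxra, a partner of thyroid hormone receptors, was at -0.40. Insrr there rested on 94 UMIs in all. In other neurons Crym and Rxrg were each at 0.92, with Stat5a at -0.81 and Socs1 at -0.77. In astrocytes the IGF binding proteins Igfbp4 (1.09) and Igfbp7 (1.04) were higher in C57J, and Hr, a corepressor of thyroid hormone receptors (-1.65), and Igfbp5 (-0.79) were lower. In OLs Rxrg was at 1.75 and Crym at 1.30, from 39 and 62 UMIs in all, with Rxra at -0.79 and Irs2 at -0.61. Mean Rxrg and Crym were 3.16 ± 2.06 and 4.29 ± 2.92 CPM in OLs, against 19.7 ± 7.98 and 18.9 ± 9.77 in other neurons. These low OL values may include RNA of neurons, and its part was not tested. In OPCs Rxrg was at 1.00 and Rxrb at 0.81, with Dio2 at -1.42 and Pik3r1, a subunit of PI3 kinase, at -0.78. Dio2 there was 7.25 and 5.95 CPM in the C57J libraries, 8.58 in nude and 22.6 in BALB/c. In microglia Igfbp5 was at 0.58 and Socs2 at -1.02.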

How the data were processed

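Nuclei of LS tissue from 4 libraries (both C57J, nude, BALB/c) were analysed. The authors aligned reads to mm10 with Cell Ranger 7.0.1, as the submitters' processing notes list, and deposited the UMI counts of called nuclei without normalizing them. The counting of intronic reads is not given in the sources used here. Nuclei were kept between 200 and 6000 genes, between 300 and 50000 UMIs and under 2% mitochondrial UMIs, and predicted doublets from simulated pairs were removed. All libraries were clustered together (Leiden, resolution 1, 40 components of 3000 variable genes, leidenalg 0.10.2), without the receptors, their related genes or genes that differed between strain backgrounds. LS and other neurons and astrocytes were clustered again on 30 components of 2000 genes. A class needed at least 0.5 of the marker level of the highest cluster and 3 markers at 10 CPM or more, limits that were set after the data were seen.

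UMIs were summed per class and library and tested with edgeR 4.0.16 (R 4.3.3, filterByExpr, TMM, quasi-likelihood, Benjamini-Hochberg adjustment over all genes tested). DESeq2 1.42.0, no TMM, no filter, thinning, stricter limits, kept doublets, resolution 2 and each library left out were alternatives. The scripts were tested on simulated data. Kept UMIs per library ranged from 59804042 to 102480358. Positions come from GENCODE vM21 (GRCm38), which held 32158 of the 32285 gene IDs. All members, the lists of related genes and the markers were chosen with earlier results of these data known. Named genes were the receptors, the 3 most similar genes of each (over types of at least 50 nuclei, genes of at least 20 CPM in 1 type, pseudocount 1), and, per class, related genes called or with the 2 largest differences each way among those with libraries that did not overlap. Other genes named for their class levels were chosen after their values were seen. A few genes that these rules select are not reported here, and 1 panel gene was not used to name clusters.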

Additional observations from a re-analysis of the deposited data

Results flagged for a closer look

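The C57J libraries lay above both others in 1 class and below both in another for several genes, and none of these differences between classes was tested beyond astrocytes against LS neurons. Over all genes tested, the share whose libraries did not overlap was 32.9% (microglia) to 45.3% (LS neurons). How many of all genes had opposite orders in different classes was not counted, so these genes are not shown to stand apart. Values are log2 fold changes of C57J over nude and BALB/c. Lepr was at 0.69 in LS neurons and -1.65 in OLs, the latter from 46 UMIs in all. Thrb was at 0.22 in other neurons and -0.20 in OPCs. Among related genes, Igfbp5 was at 0.19 in other neurons, 0.58 in microglia and -0.79 in astrocytes. Socs1 was at 0.55 in LS neurons and -0.77 in other neurons, at levels under 2 CPM. Socs2 was at 0.07 in LS neurons, 0.07 in other neurons and -1.02 in microglia. Insrr was at 0.92 in LS neurons and -0.48 in other neurons, and Hr at 0.32 in OLs and -1.65 in astrocytes. None of these estimates passed the edgeR test in its class.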

How the results depend on the processing

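Every count of receptors called stayed at 0 under DESeq2, without TMM factors, without the filter, on adjusted p alone, with nuclei thinned to 1000 UMIs, under stricter limits, with doublets kept and at resolution 2. The astrocyte to LS neuron ratios kept their direction under every alternative run, except that the ratio of Ghr had no fixed direction to begin with. With 1 library left out, Lepr in LS neurons passed only without C57J 2, where strain and batch cannot be told apart. Receptors in OLs, OPCs and microglia passed only without nude, where the lone BALB/c library is assumed to vary like the C57J libraries. Counts over all genes moved much more, from 407 to between 136 and 1103 in LS neurons and from 142 to between 38 and 1545 in other neurons over all alternatives. They ranged from 0 to 1049 in astrocytes (7 as reported), 1 to 615 in OLs (9), 6 to 519 in OPCs (25) and 0 to 990 in microglia (0), and DESeq2 called 655, 402, 87, 67, 31 and 14 in the order of the classes above. Of the 290 single log2 fold changes under other settings, 279 were not reversed, where Thrb in astrocytes (-0.00 as reported) could not count as reversed. Insr turned to -0.05 in LS neurons, 0.01 in OPCs and -0.04 in microglia after thinning, to -0.01 in microglia with DESeq2 and with doublets kept, to -0.01 in other neurons with doublets kept and to 0.01 in OPCs without TMM factors. Thra in LS neurons turned to -0.05 after thinning. Prlr turned to 0.06 in OPCs and 0.07 in microglia with doublets kept and to 0.05 in OPCs without TMM factors. The cause was not tested.

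With 1 library left out, the sign also changed for estimates near 0 or with wide errors. In LS neurons Thra ranged from -0.15 to 0.16 and Thrb from -0.17 to 0.02. In other neurons Ghr ranged from -0.02 to 0.36, Prlr from -0.42 to 0.22, Lepr from -0.23 to 0.12, Insr from -0.02 to 0.04 and Thra from -0.03 to 0.35. In astrocytes Prlr ranged from -0.93 to 0.49, Insr from -0.28 to 0.01, Thra from -0.03 to 0.28 and Tshr from -0.04 to 0.41. Thrb there, at -0.00 as reported, ranged from -0.22 to 0.20. In OLs Ghr ranged from -0.59 to 0.96, Prlr from -1.25 to 0.49, Insr from -0.62 to 0.01 and Thrb from -0.64 to 0.75. In OPCs Ghr ranged from -0.22 to 0.03, Prlr from -0.88 to 1.28, Insr from -0.20 to 0.04 and Thra from -0.15 to 0.32. In microglia Ghr ranged from -0.55 to 1.87, Prlr from -1.15 to 1.84, Insr from -0.15 to 0.23, Thra from -0.01 to 0.86 and Thrb from -0.11 to 0.86. No paired analysis was possible, since the labels give no pairing between the C57J libraries and the nude or BALB/c libraries. Lepr in astrocytes, OPCs and microglia and Tshr in OLs, OPCs and microglia had too few UMIs to be tested.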
